A study of Rattus norvegicus with 6 samples.

Results

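A set of 10 genes known from the choroid plexus and the dorsal midline of the brain were followed in polyA-selected RNA of cortical neural progenitors of the rat. The members are *Ttr*, *Otx2*, *Kl*, *Folr1*, *Aqp1*, *Clic6*, *Lmx1a*, *Rspo1*, *Rspo2* and *Rspo3*. They were taken by symbol, and all 10 are among the 17337 gene names of the RNA-seq tables. They were chosen by gene function and by their FPKM values in these same libraries, so their levels and differences are given as a description, with no test.

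The progenitors were cultured from cortices of Sprague Dawley embryos at embryonic day 14, in medium with 20 ng/ml bFGF and 20 ng/ml EGF, and were collected after a second passage without any treatment. Of 2 biological replicates, A was sequenced in the libraries A1 and A2, and B in the libraries B1 and B2, as the labels group them. The labels give a letter and a number only, and the numbers are taken here to mark technical libraries. The deposited table of B2 carries a run number of another series than those of A1, A2 and B1, and whether B1 and B2 come from the same culture was not tested, which bears on each mean and SD that includes B2. There was a single condition, and the embryos were of either sex. The 2 Start-seq samples of the same cells were not analysed here.

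The choroid plexus is a sheet of epithelium that secretes cerebrospinal fluid into the ventricles of the brain. It develops from the dorsal midline, where the roof plate and the cortical hem release Wnt and BMP signals. In the telencephalon this midline borders the cortex. Transcription factors such as *Otx2* and *Lmx1a* act in the dorsal midline, the R-spondins are secreted proteins that strengthen Wnt signalling, and the mature epithelium is known for very high levels of *Ttr*.

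Levels are in FPKM, that is, sequenced fragments relative to transcript length and library depth. The depth was read from the coverage (mean read depth) that corresponds to 1 FPKM, which was between 22.7 and 24.4 in A1, A2 and B1 and 6.83 in B2, so B2 held 28.1% of the depth of B1. Markers of cortical progenitors were present, and all 8 that are given here reached 1 FPKM on average, from 13.2 FPKM for *Emx2* to 11840 FPKM for *Fabp7*. All 12 markers of mesenchymal and meningeal cells averaged above 1 FPKM as well, and their summed level was 698 and 676 FPKM in A1 and A2, 2553 FPKM in B1 and 3392 FPKM in B2.

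With technical libraries averaged within each replicate, 4 of the 10 members averaged 1 FPKM or more, namely *Ttr*, *Otx2*, *Aqp1* and *Rspo1*. Among all gene names the share was 60.5%. The other 6 were between 0.0178 FPKM for *Kl* and 0.553 FPKM for *Folr1*. *Ttr* and *Otx2* were lower in replicate B, *Otx2* mainly through B2, where it was listed at 0, while *Aqp1* and *Rspo1* were higher in replicate B. The members therefore did not move as 1 group.

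**Figure D1:**
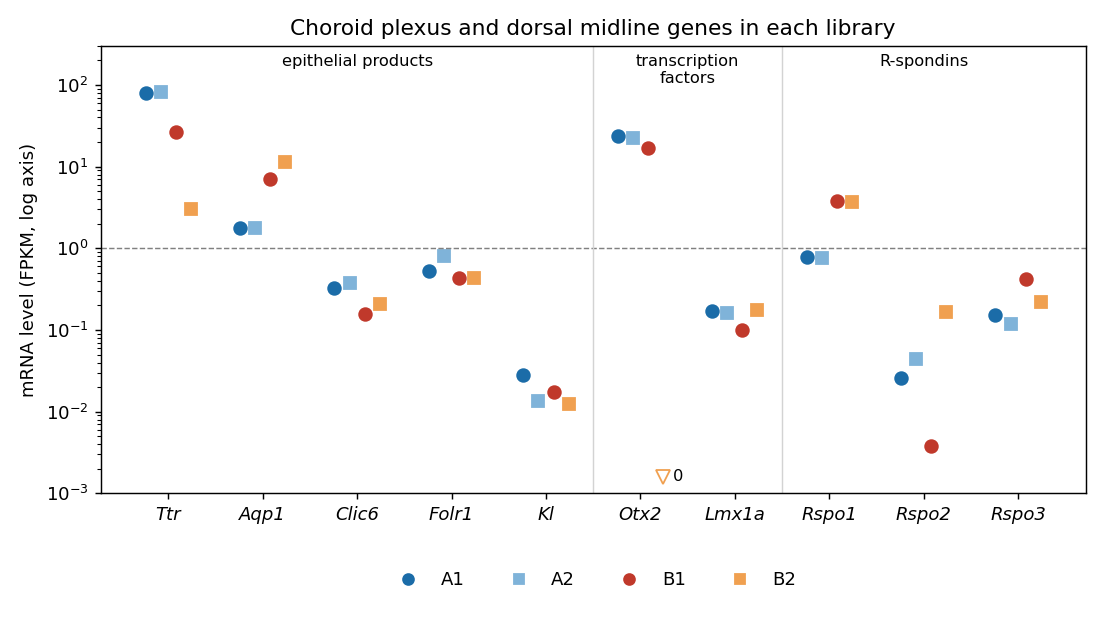
FPKM (log axis) of each of the 10 members in the libraries A1, A2, B1 and B2, ordered by role, with a dashed line at 1 FPKM and an open triangle for the value of Otx2 that is listed at 0. Ttr lies at 80.7 and 82.6 FPKM in A1 and A2 and at 3.03 FPKM in B2, Aqp1 and Rspo1 are higher in both libraries of B than in both of A, and 6 members lie below the line in B1 and 7 in each of the other libraries.

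Promoter sequences were taken from RefSeq (GRCr8), whose table holds 6 of the 10 members. Those of *Aqp1* and *Rspo1* are shown because these members were higher in B together. Each runs from 250 bases before to 50 bases after an annotated start, on the plus strand of GRCr8, and capitals mark matches on either strand to any of 5 short motifs, which are the TATA box (TATAAA), the GC box (GGGCGG), the E box (CACGTG), and the sites of Otx-type (TAATCC) and Lmx-type (TAATTA) homeodomains.
Aqp1, chr4:85812534-85812833: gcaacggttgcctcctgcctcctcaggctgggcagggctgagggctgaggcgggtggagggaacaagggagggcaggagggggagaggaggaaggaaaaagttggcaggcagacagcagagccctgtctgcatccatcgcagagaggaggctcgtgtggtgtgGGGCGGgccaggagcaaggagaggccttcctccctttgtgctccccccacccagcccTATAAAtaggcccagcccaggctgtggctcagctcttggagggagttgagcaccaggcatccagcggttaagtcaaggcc
Rspo1, chr5:142536040-142536339: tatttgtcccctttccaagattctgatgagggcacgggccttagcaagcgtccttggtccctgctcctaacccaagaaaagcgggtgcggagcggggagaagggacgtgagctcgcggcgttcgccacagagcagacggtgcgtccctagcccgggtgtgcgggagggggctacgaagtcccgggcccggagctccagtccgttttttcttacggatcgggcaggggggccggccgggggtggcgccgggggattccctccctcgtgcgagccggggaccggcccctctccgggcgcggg
The *Aqp1* window holds the TATA box at -30 and the GC box at -87 from the start. Of 33469 promoters of this length in the table, 14.2% hold the TATA box and 33.1% the GC box. These shares count a match at any position and on either strand, so they are not the shares with a match at the same position. The windows of *Rspo1* and *Ttr* hold none of the 5 motifs, and the others occur in 7.17% (Otx-type), 5.36% (Lmx-type) and 6.42% (E box) of all promoters. The GC content was 64% for *Aqp1*, 68.7% for *Rspo1* and 43.7% for *Ttr*, and the median over all promoters was 51.7%. For *Ttr* and *Rspo1* the start used lies inside the outermost bounds of the gene in that assembly, and *Ttr* is on the plus strand there and on the minus strand in the rn6 tables.

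*Ttr* encodes transthyretin, which carries thyroid hormone and, together with retinol binding protein, retinol. The gene spans 15532964 to 15540177 of rn6 chromosome 18, minus strand, within the long span that the tables list on the other strand for *Mapre2*. Its mRNA level was 80.7 FPKM in A1, 82.6 FPKM in A2, 26.4 FPKM in B1 and 3.03 FPKM in B2. Both libraries of replicate B were below both of replicate A, and the libraries of B were further apart from each other than those of A. The replicate means were 81.6 FPKM in A and 14.7 FPKM in B, with an overall mean of 48.2 ± 47.3 FPKM (SD, n = 2). By FPKM the gene ranked 1317 and 1307 among the 17337 names in the libraries of A, but 3881 in B1 and 9128 in B2. The sources used here do not give whether counting used strand, so reads of *Mapre2* within this span cannot be told apart from those of *Ttr*.

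The difference of *Ttr* between the replicate means was -2.39 on the log2(FPKM + 1) scale, a scale that understates the change of low genes. Of 10481 genes that averaged 1 FPKM or more, 1 had a lower value, *Bc1*, which is named for that reason after its value was seen. With B1 as the only library of replicate B the difference was -1.59, and with B2 as the only one it was -4.36. *Ttr* was thus lower in B by either library, but the size rests on which library is used. Between B1 and B2, taken as technical libraries of the same replicate, it differed 8.72-fold. On the log2(FPKM + 1) scale this is -2.77, and 11 of the 10481 genes had a lower value there. At least 2-fold lower in B2 than in B1 on this scale were 2 members, *Ttr* and *Otx2*, the latter only through a listed 0 that is not read as absence of the transcript, and 0 members were at least 2-fold higher, against 0.773% and 2.02% of all 10481 genes. Between A1 and A2 the difference of *Ttr* was 0.03, and 0 members were 2-fold apart on this scale, against 0.153% of all 10481 genes. Members near 0 can hardly reach such a difference on this scale. In FPKM itself *Kl* was 2.07-fold apart between A1 and A2, and *Rspo2* was 43.9-fold higher in B2 than in B1. The mean read depth over *Ttr* was still 20.7 in B2.

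*Aqp1* encodes the water channel aquaporin-1, which sits in the apical membrane of the choroid plexus epithelium and is also made by other cells, endothelium of many tissues among them. It spans 85551503 to 85563683 of rn6 chromosome 4, plus strand. Its mRNA level was 1.78 FPKM in A1, 1.79 FPKM in A2, 7.04 FPKM in B1 and 11.4 FPKM in B2. Both libraries of B were above both of A, and the mean was 5.51 ± 5.27 FPKM (SD, n = 2). The difference between replicates, B minus A, was 1.88 on the log2(FPKM + 1) scale and 5.18-fold in FPKM. It ran opposite to that of *Ttr*, so the ratio of the FPKM of *Ttr* to that of *Aqp1* was 45.3 and 46.2 in the libraries of A, 3.75 in B1 and 0.265 in B2. This ratio is taken within a library and does not depend on how libraries are scaled. The 6 endothelial markers examined had means from 0.0809 to 0.914 FPKM, and their sum was 1.02 and 0.876 FPKM in A1 and A2, 1.82 FPKM in B1 and 4.46 FPKM in B2. For 5 of them both libraries of B were above both of A and for 0 below, as for *Aqp1*, and their part in its difference was not tested.

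*Clic6*, a member of the chloride intracellular channel family, was low in all libraries, at 0.324 FPKM in A1, 0.372 FPKM in A2, 0.155 FPKM in B1 and 0.205 FPKM in B2. *Folr1*, which encodes the folate receptor that the choroid plexus uses to move folate into the cerebrospinal fluid, had 0.530 and 0.813 FPKM in A1 and A2 and 0.436 and 0.435 FPKM in B1 and B2. For both genes the libraries of B lay below those of A, as for *Ttr*. The differences, B minus A, were -0.19 and -0.22 on the log2(FPKM + 1) scale. The mean read depth in B2 was 1.40 over *Clic6* and 2.97 over *Folr1*, and for *Folr1* the libraries of A differed from each other by more than the nearest libraries of A and B did. The tables list *Olr51* on the other strand over *Folr1*, and reads of the pair cannot be told apart either.

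*Kl* encodes klotho, a co-receptor for FGF23 that the kidney and the choroid plexus epithelium express. It had 0.0279 and 0.0135 FPKM in A1 and A2 and 0.0173 and 0.0124 FPKM in B1 and B2. The mean read depth over the gene was between 0.0850 and 0.679, so no difference between libraries could be detected at this depth. The libraries of A and B overlapped.

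*Otx2* encodes a homeodomain transcription factor that is required for development of the choroid plexus and also marks the midbrain and the eye. It spans 25500995 to 25526281 of rn6 chromosome 15, minus strand, and no other gene of the tables overlaps it. Its mRNA level was 23.7 FPKM in A1, 22.4 FPKM in A2 and 16.8 FPKM in B1, and it was listed at 0 in B2. Without B2 the difference between B1 and the mean of A was -0.44 on the log2(FPKM + 1) scale, and with B2 included it was -1.36. The low value of *Otx2* in replicate B thus rests on the listed 0.

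At the depth of B2, the coverage of *Otx2* in B1 would correspond to a mean read depth of 57.4. Of all genes with at least 5 FPKM in each of the other libraries, 9 were listed at 0 in B2, and 0 genes showed the same for A1, A2 or B1. *Otx2* is one of these 9, and so is *Rab1b*, a gene of membrane trafficking that cells in general use, which had 40.8, 46.3 and 49.0 FPKM in A1, A2 and B1. The 0 is therefore given as listed and not as absence of the transcript, and no mean with SD is given for *Otx2*. The FPKM of *Otx2* also stands in another relation to its coverage than that of the other members. The coverage per FPKM was 0.5 times the median of the library, as in between 0.938% and 1.19% of the detected rows, and coverage divided by the usual ratio would give 11.9, 11.2 and 8.41 FPKM in A1, A2 and B1.

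**Figure D2:**
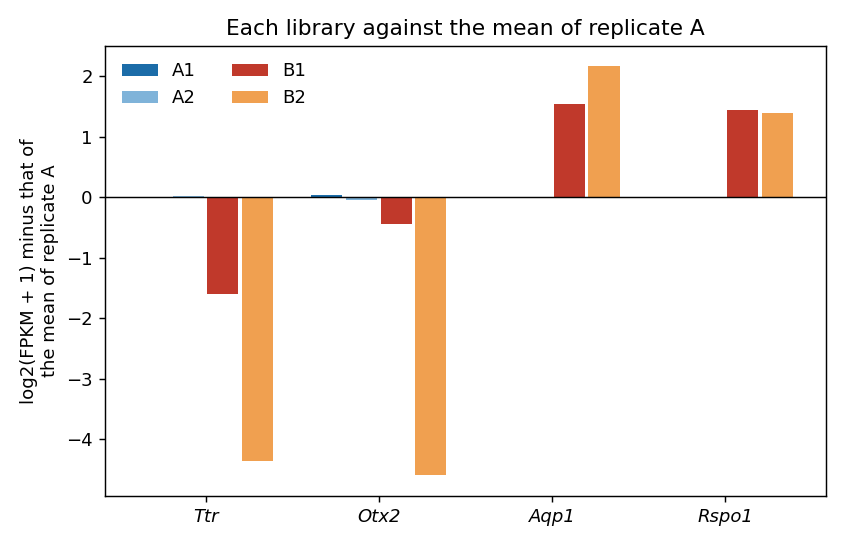
Value of log2(FPKM + 1) in each library minus that of the mean of replicate A, for the 4 members that averaged 1 FPKM or more, with 1 bar for each library. B1 and B2 are nearly equal for Rspo1, while for Ttr and Otx2 the bars of B2 reach -4.36 and -4.59 and those of B1 -1.59 and -0.44. The bar of B2 for Otx2 stands for the listed 0, which is not read as absence of the transcript.

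*Lmx1a* encodes a LIM homeodomain factor that specifies the roof plate and the cortical hem. It had 0.170 FPKM in A1, 0.164 FPKM in A2, 0.0995 FPKM in B1 and 0.175 FPKM in B2, with a mean of 0.152 ± 0.0207 FPKM (SD, n = 2). The libraries of A and B overlapped, and the lowest value was in B1. The mean read depth over *Lmx1a* was at most 4.12.

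The R-spondins bind receptors of the LGR family and keep the ligases RNF43 and ZNRF3 from removing Wnt receptors from the cell surface. *Rspo1*, which spans 142986526 to 143007831 of rn6 chromosome 5, plus strand, was the most abundant by FPKM in each library. It had 0.780 FPKM in A1, 0.759 FPKM in A2, 3.77 FPKM in B1 and 3.66 FPKM in B2. The libraries of B did not overlap those of A, and the technical libraries of each replicate were close to each other. The mean was 2.24 ± 2.08 FPKM (SD, n = 2), and the difference, B minus A, was 1.41 on the log2(FPKM + 1) scale and 4.83-fold in FPKM. With B1 alone the difference was 1.43 and with B2 alone 1.40, so it did not rest on 1 library.

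*Rspo3* had 0.151 and 0.117 FPKM in A1 and A2 and 0.426 and 0.223 FPKM in B1 and B2. These libraries of B were above those of A as well, although the difference between B1 and B2 was larger than that between A1 and B2. *Rspo2* had 0.0257 FPKM in A1, 0.0439 FPKM in A2, 0.00382 FPKM in B1 and 0.168 FPKM in B2, and the groups overlapped. The mean read depth over *Rspo2* was 0.0931 in B1 and 1.15 in B2. The summed FPKM of the 3 R-spondins came to 0.938 in A and 4.12 in B, of which *Rspo1* made up 82.0% and 90.1%.

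A gene was counted as differing where it averaged 1 FPKM or more, where the replicate means were 1 or more apart on the log2(FPKM + 1) scale, and where no library of A overlapped those of B. By this count 4 members differed, and 2 of them were higher in B (*Aqp1* and *Rspo1*) and 2 lower (*Ttr* and *Otx2*). *Rspo1* reached the minimum mean only through replicate B, with means of 0.770 FPKM in A and 3.71 FPKM in B. The same holds for *Lbp*, *Wnt2b* and *Rbp4* in the lists below. With no filter on low values 4 members were counted as well. Among the 10481 genes at or above 1 FPKM on average, 6.2% were counted, 4.78% as higher and 1.42% as lower in B. Without B2 there were 3 such members, since *Otx2* was no longer counted, against 5.48% of all genes. The choice of the members followed this contrast, so these counts carry no comparison of the members with other genes. The median difference over the 4 members was 0.03, between values of opposite sign, and that over all 10481 genes was -0.03. The median over the members was -1.48 without B1, 0.50 without B2 and -0.55 where log2(FPKM + 1) was averaged, so its sign depends on the processing. By overlap alone, the libraries of B were above those of A for 3 of the 10 members and below for 4, against 24.2% and 30.4% of 15031 genes that were above 0 in at least 1 library.

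**Figure D3:**
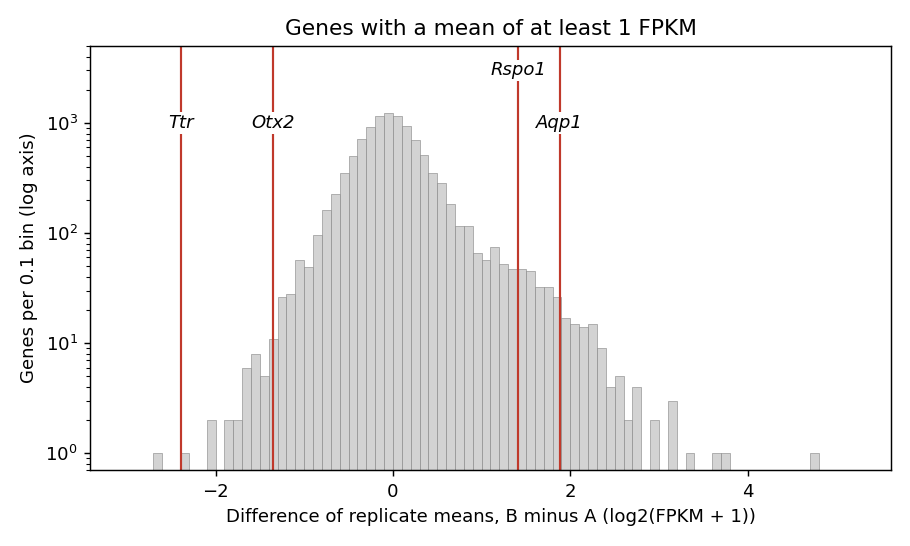
Number of genes (log axis) by the difference of the replicate means, B minus A, on the log2(FPKM + 1) scale, for the 10481 genes that averaged 1 FPKM or more, with red lines at the 4 members above that level. Ttr (-2.39) and Otx2 (-1.36) lie in the left tail, and Rspo1 (1.41) and Aqp1 (1.88) in the right tail.

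Other genes of the choroid plexus epithelium were examined beside the members. Of 25 genes found in the tables, 9 averaged 1 FPKM or more, 2 were counted as higher in B and 0 as lower, and the median difference was 0.11 on the log2(FPKM + 1) scale. The genes counted were *Slc13a4*, a sulfate transporter, and *Lbp*, which binds lipopolysaccharide. *Slc13a4* had 1.24 and 0.904 FPKM in A1 and A2, 3.56 FPKM in B1 and 18.0 FPKM in B2. *Lbp* had 0.322 and 0.356 FPKM in A1 and A2, 1.57 FPKM in B1 and 6.16 FPKM in B2. Without B2, *Lbp* was no longer counted (0.94) and *Enpp2* was (1.09). The highest mean over both replicates was that of *Enpp2*, which encodes the secreted enzyme autotaxin, with 28.4 and 28.6 FPKM in A1 and A2 and 61.7 and 51.7 FPKM in B1 and B2.

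The other genes of the list covered a wide range. *Slc29a4*, a monoamine transporter, had a mean of 30.4 FPKM and was above *Enpp2* in both libraries of A, *Slc4a2*, an anion exchanger, 19.7 FPKM, *Slc12a2*, a cotransporter of sodium, potassium and chloride, 10.7 FPKM, and *Kcne2*, a potassium channel subunit, 4.96 FPKM. *Kcnj13*, a potassium channel of the apical membrane, was between 0.313 and 0.984 FPKM, *Cldn2*, a claudin of its tight junctions, was at or below 0.0406 FPKM, and *Tmem72* was at or below 0.0235 FPKM and listed at 0 in B1 and B2. Over the 25 genes, both libraries of B were above both of A for 7, below for 7 and overlapping for 11. In all, 16 of the 25 genes had a mean below 1 FPKM. In bulk RNA, fewer cells of a type and less RNA in each cell cannot be told apart.

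Of 19 signals and factors of the roof plate and the cortical hem, 14 averaged 1 FPKM or more. There were 7 counted as higher in B and 0 as lower, with a median difference of 1.09. They were *Msx1*, *Zic1*, *Wnt2b* and the BMP ligands *Bmp2*, *Bmp4*, *Bmp6* and *Bmp7*. *Bmp6* had 16.3 and 15.5 FPKM in A1 and A2, 24.4 FPKM in B1 and 93.3 FPKM in B2. *Wnt2b* had 0.572 and 0.508 FPKM in A1 and A2 and 3.60 and 2.98 FPKM in B1 and B2. *Wnt8b*, which marks the cortical hem and the medial cortex beside it, went the other way, with 1.81 and 1.78 FPKM in A1 and A2 and 0.961 and 0.865 FPKM in B1 and B2. *Wnt3a*, the Wnt ligand that defines the hem, was at or below 0.0271 FPKM in each library and listed at 0 in B1 and B2. *Wnt1*, *Lmx1b* and *Gdf7* of the same list were low too, at or below 0.0145, 0.0763 and 0.241 FPKM in each library. Without B2, 5 of the 14 genes were counted as higher, and *Bmp6* and *Zic1* were not.

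Several of these genes, such as *Zic1*, *Bmp4* and *Bmp7*, are also made by the meninges. Of the 12 mesenchymal and meningeal markers, 11 were counted as higher in B and 0 as lower, with a median difference of 1.81, and without B2 there were 8, with *Foxc2*, *Tbx18* and *Ptgds* no longer counted. *Col1a1* had 169 and 157 FPKM in A1 and A2 and 685 and 785 FPKM in B1 and B2, and *Foxc1*, a transcription factor of the meninges, had 14.2 and 14.1 FPKM in A1 and A2, 29.4 FPKM in B1 and 115 FPKM in B2. These markers were higher in B together with *Aqp1* and *Rspo1*, and their part in those differences was not tested. Of the 8 progenitor markers, 2 were counted as lower in B, namely *Fabp7* and *Hes5*, and 0 as higher, with a median difference of -0.44, and without B2 there were 2 as well. Both libraries of B were below both of A for 5 of the 8, and 3 overlapped (*Pax6*, *Nes* and *Vim*), of which *Nes* and *Vim* had higher means in B. Those higher means rest on B2, with 55.4 FPKM for *Nes* and 4458 FPKM for *Vim*. In B1 they had 28.2 and 2652 FPKM, below both libraries of A. *Fabp7* and *Hes5* were lower together with *Ttr*, and their part in that difference was not tested either.

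**Figure D4:**
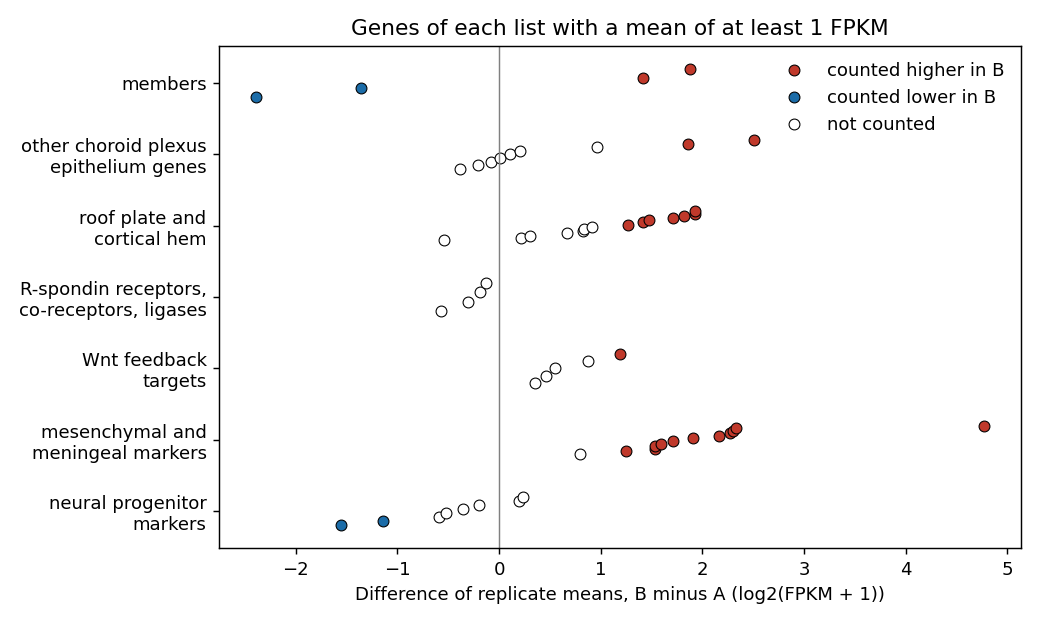
Difference of the replicate means, B minus A, on the log2(FPKM + 1) scale, with 1 point for each gene that averaged 1 FPKM or more, by list, in red where counted as higher in B, in blue where counted as lower and in white otherwise. The members fall on both sides of 0, whereas 11 of 12 mesenchymal and meningeal markers and 7 of 14 roof plate and cortical hem genes are counted as higher in B.

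*Otx2* and *Ttr* are also known from the retinal pigment epithelium, and *Otx2* and *Lmx1a* from the midbrain. Of 7 markers of the retinal pigment epithelium in the tables, 3 averaged 1 FPKM or more, *Mitf* at 6.05, *Rlbp1* at 3.98 and *Rpe65* at 2.16 FPKM, while the pigment genes *Tyr* and *Tyrp1* were at or below 0.0704 FPKM in each library. *Rlbp1* had 4.86 and 5.54 FPKM in A1 and A2 and 3.35 and 2.18 FPKM in B1 and B2, and *Rpe65* had 2.59 and 2.75 FPKM in A1 and A2 and 1.41 and 1.89 FPKM in B1 and B2, so both were below A in the libraries of B. *Mitf* overlapped, with 6.14 and 7.39 FPKM in A1 and A2 and 3.77 and 6.92 FPKM in B1 and B2. Over the 7 markers, the libraries of B were above those of A for 1, below for 4 and overlapping for 2. Of 7 markers of midbrain and floor plate, only *En2* was above 1 FPKM, with a mean of 12.4 FPKM, and *Pax2*, *Pax5* and *Foxa2* were at or below 0.0282 FPKM. Among 4 genes of multiciliated ependymal cells, *Foxj1* was highest, with a mean of 34.0 ± 5.67 FPKM (SD, n = 2), and 0 were counted as differing. *Otx1*, the relative of *Otx2* that acts in cortical progenitors, had 56.1 and 43.0 FPKM in A1 and A2 and 27.4 and 38.7 FPKM in B1 and B2, and *Crx* was at or below 0.0461 FPKM.

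Of the receptors, co-receptors and ligases through which R-spondins act, 5 were in the tables and 4 averaged 1 FPKM or more. Of these, 0 were counted as differing, and the median difference was -0.25. *Lgr4*, the most abundant R-spondin receptor here, had 22.4 and 21.6 FPKM in A1 and A2 and 13.7 and 15.3 FPKM in B1 and B2. *Lgr5* had 1.37 and 1.35 FPKM in A1 and A2 and 1.15 and 0.666 FPKM in B1 and B2. Both receptors were thus below A in the libraries of B, where *Rspo1* was above. *Rnf43* was at or below 0.453 FPKM in A1, A2 and B1 and at 1.95 FPKM in B2. Of 5 feedback targets of Wnt signalling at this level, the libraries of B were above those of A for 4, and *Nkd1* was counted, with a mean of 17.7 FPKM in A and 36.4 and 46.8 FPKM in B1 and B2. The median difference of these targets was 0.55.

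Relatives and partners of the other members were examined as well. Among the aquaporins *Aqp4*, the water channel of astroglia, had 80.8 ± 7.15 FPKM (SD, n = 2), and among the CLIC proteins *Clic1* had 62.1 ± 23.4 FPKM (SD, n = 2). *Clic1* was at 44.1 and 46.9 FPKM in A1 and A2 and at 107 FPKM in B2, which was 1.09 above B1 on the log2(FPKM + 1) scale. In either family 0 of the 3 other genes above 1 FPKM were counted as differing. *Folr2*, the other folate receptor in the list, had a mean of 0.122 FPKM, while folate carriers of other families were present, with 15.8 ± 1.73 FPKM (SD, n = 2) for *Slc46a1*, the proton-coupled carrier. *Slc19a1*, the reduced folate carrier, was the only gene counted among the 10 folate genes above 1 FPKM, with 6.88 and 6.27 FPKM in A1 and A2, 12.0 FPKM in B1 and 20.6 FPKM in B2, and without B2 it was not counted. *Lctl*, of the klotho family, had a mean of 0.691 FPKM. FGF receptors with which klotho can pair were present, led by *Fgfr1* at 80.3 ± 3.25 FPKM (SD, n = 2), and 0 of 3 genes above 1 FPKM in that list were counted. *Rbp4*, the retinol carrier that binds transthyretin, was the only one counted of 5 genes of thyroid hormone and retinol handling, with 0.726 and 0.744 FPKM in A1 and A2, 1.34 FPKM in B1 and 3.78 FPKM in B2, opposite in direction to *Ttr*, and without B2 it was not counted.

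For each of the 4 members above 1 FPKM, the genes with the most similar profile over the 4 libraries were sought among the 10481 genes, by the Euclidean distance of log2(FPKM + 1) values centred on their mean. For *Rspo1* they were *Rarb*, *Col5a2* and *Calhm2*, at distances from 0.0281 to 0.0629. *Rarb*, a retinoic acid receptor, had 1.24 and 1.18 FPKM in A1 and A2 and 5.03 and 4.76 FPKM in B1 and B2. For *Aqp1* they were *Tec*, *Slco2b1* and *Rbms1*, at distances from 0.0587 to 0.0888. *Otx2* was closest to *Tmco3*, *Aldh18a1* and *Slc25a22*, at distances from 0.350 to 0.471, which like *Otx2* were at or near 0 in B2 alone. *Ttr* had no gene within a distance of 1, the nearest being *Otx2* at 1.09, followed by *Ndp* and *Aldh18a1*, and all 3 were listed at 0 in B2.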

How the data were processed

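PolyA-selected RNA-sequencing libraries from 2 biological replicates of rat neural progenitors were grouped by the replicate letter in the sample labels. The 2 libraries of each replicate were taken as technical. Reads were aligned to rn6 by the authors with STAR, and the tables follow the layout of StringTie. The deposited values per library are FPKM, TPM (scaled by the authors to 1000000 in each library) and coverage, a signal that the authors did not scale for depth. The authors name Rsubread and DESeq2 for FPKM in their methods. Tool versions are not given in the sources used here.

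Rows with the same gene name were added up, and FPKM was averaged over technical libraries before the logarithm. The SD is over 2 biological replicates, and technical spread is not biological spread. A pseudocount of 1 was used. No test between the replicates was made, because there was 1 condition with 2 cultures. Differing genes were counted at a mean of at least 1 FPKM, a log2 difference of at least 1 and no overlap. This count was also run on simulated data, and that run is not used here to judge the differences between A and B. The members, the gene lists and the rules were chosen with earlier results of these data known. From the other lists, genes counted as differing, the most abundant and those at or near 0 were named, with relatives and defining markers chosen after their values were seen. The 3 closest profiles were named for each member with a mean of at least 1 FPKM and a range of at least 1 on the log2 scale. Alternatives were a pseudocount of 0.1, TPM, size factors, other thresholds and each library left out. The number of reads was not used, and coverage stands for depth. Start-seq was not analysed here, and 1 progenitor marker is not reported here. Computation was in Python (3.11.15), pandas (2.3.3) and numpy (2.4.6), and plots in matplotlib (3.10.9).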

Additional observations from a re-analysis of the deposited data

Results flagged for a closer look

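The levels of the 10 members and the depth, 11 values in all, were searched for a library that stood apart, with a large gap to its neighbour relative to the spread of the 4 libraries, and 2 were found. The coverage per FPKM was 6.83 in B2, against 22.7 to 24.4 in the others. The FPKM of *Lmx1a* was 0.0995 in B1, against 0.164 to 0.175 in the others. About 1 in 20 would be found by chance among independent samples, which technical pairs are not.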

How the results depend on the processing

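The members counted as differing between A and B numbered 4 with a pseudocount of 0.1, TPM values, size factors, no filter on low values, a log2 difference of at least 0.58, and averaging of log2(FPKM + 1), the last of which was chosen after seeing the data and counted 645 of all genes in place of 650. Over all genes the count was 900 with the pseudocount of 0.1 (257 lower in B, against 149), 757 with TPM (223 lower), 658 with size factors, 660 with no filter, 331 at a mean of 10 FPKM or more and 1725 at a log2 difference of 0.58. With the minimum mean at 10 FPKM there were 2 members, both lower in B, and the median difference over the members became -1.88, because *Aqp1* and *Rspo1* were no longer included. That median was 0.34 with the pseudocount of 0.1 and -0.55 with averaging of log2(FPKM + 1). With 1 library left out, the count ranged from 3 to 4 (over all genes from 571 without B2 to 890 without B1), the median difference from -1.48 (without B1) to 0.50 and the number of members with a mean of at least 1 FPKM stayed at 4. The count of 3 was without B2, where *Otx2* was lost. The number with at least 1 FPKM was 2 when every library had to reach it, since *Otx2* in B2 and *Rspo1* in A1 and A2 did not. Over all these alternatives the log2 difference, B minus A, ranged from -4.36 to -1.59 for *Ttr*, from -4.59 to -0.44 for *Otx2*, from 1.53 to 2.31 for *Aqp1* and from 1.40 to 2.13 for *Rspo1*, and 0 reversed. No paired analysis was possible because the library numbers are taken to mark technical libraries and no test was made. The depth of B2 limits what can be said of members below 1 FPKM.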
